A study of Mus musculus with 2 samples.

Results

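Known transcripts of one exon were the annotated RNAs with a single exon, from genes with or without spliced transcripts, some as retained-intron forms. They were taken from the deposited tables of long-read RNA sequencing of the mouse heart as rows of the class Known with 1 exon, leaving out spike-in RNAs and genes of the mitochondrial genome. This gave 1235 transcripts of 1226 genes, out of 17810 known transcripts of nuclear genes with a read (6.93%). Of these, 875 were read in replicate 1 and 992 in replicate 2, and 632 were read in both. The hearts came from male B6CASTF1/J mice aged 2 months, the hybrid offspring of a cross between a C57BL strain and the wild-derived CAST strain. The labels name no treatment, and there was a single group of 2 libraries. The biosample labels named animals with different numbers, while another label field gave both libraries the same animal number and the donor entry was shared. Differences between the libraries therefore measure only the spread between these 2 samples, which may be technical.

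Most mammalian genes are split by introns, and a read that crosses a splice junction shows that it came from processed RNA. Genes without introns include the histones, many receptors and several immediate-early transcription factors, which make RNA without splicing. Processed pseudogenes are another large class. They arose when a spliced messenger RNA was copied back into DNA and inserted elsewhere, so they have no introns and carry the exon sequence of their source gene. A read that lies wholly within that shared sequence matches both places, and the authors' choice between such places is not described in the files or labels used. The split of reads between a source gene and its copies is therefore uncertain throughout.

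The following sequences carry the main results and are written 5′ to 3′ on the RNA strand, from the GENCODE M21 transcripts on mm10. First comes the whole transcript of a pseudogene that was among the most read, with the start codon and the stop codon in capitals. Gm12338 lies at chr11:75599763-75599954 on the minus strand and equals the coding sequence of Cox7c, a subunit of cytochrome c oxidase.
Gm12338: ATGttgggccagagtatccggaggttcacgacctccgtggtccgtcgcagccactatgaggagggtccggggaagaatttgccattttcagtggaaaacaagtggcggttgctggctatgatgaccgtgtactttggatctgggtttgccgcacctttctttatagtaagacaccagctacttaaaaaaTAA

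The next set shows how little separated the copies of Gapdh, the glycolytic enzyme, from their source. Each window of 41 bases holds the only base at which that copy differed from the Gapdh coding sequence, in capitals, with positions counted from 1 at the A of the start codon. Gm12033 had the substitution T504C (window at chr11:20335490-20335530, minus strand), Gm5559 had T385A (chr5:95862078-95862118, plus strand) and Gm13394 had A346C (chr2:28934244-28934284, minus strand).
Gapdh around 504: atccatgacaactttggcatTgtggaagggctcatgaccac
Gm12033: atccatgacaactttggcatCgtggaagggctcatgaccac
Gapdh around 385: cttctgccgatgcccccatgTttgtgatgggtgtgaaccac
Gm5559: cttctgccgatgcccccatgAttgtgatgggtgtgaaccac
Gapdh around 346: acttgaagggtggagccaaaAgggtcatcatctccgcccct
Gm13394: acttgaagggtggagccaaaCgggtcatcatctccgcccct

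The last set shows the last 30 bases of annotated transcripts, because these coding genes and pseudogenes have annotated ends of different kinds. The coding genes were chosen because their ends hold the polyadenylation signal AATAAA, in capitals: 0610012G03Rik (chr16:31947050-31947079, minus strand), Cenpb (chr2:131175182-131175211, minus strand) and Sephs2 (chr7:127271879-127271908, minus strand). The pseudogenes are examples that end at the stop codon of the copied reading frame, in capitals: Gm12671 (chr4:91851668-91851697, minus strand), Gm15459 (chr5:5781615-5781644, minus strand) and Rps2-ps13 (chrX:52899440-52899469, plus strand). Of the 402 pseudogenes read, 228 (56.7%) end with a stop codon.
0610012G03Rik: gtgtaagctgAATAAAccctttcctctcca
Cenpb: taatttccaAATAAAcagcttatcacacaa
Sephs2: taactaAATAAAagggactttgttggaaaa
Gm12671: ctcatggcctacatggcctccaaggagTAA
Gm15459: tcaggccccaccattgaagaggtggatTAA
Rps2-ps13: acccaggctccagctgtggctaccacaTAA

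Levels are given as CPM, reads scaled to a common total of annotated nuclear reads, which numbered 430251 reads in replicate 1 and 629896 in replicate 2. Each long read is meant to stand for 1 cDNA, so levels were not divided by transcript length. One read was worth 2.32 CPM in replicate 1 and 1.59 CPM in replicate 2, and a count of 0 allows up to 3 reads, 6.97 and 4.76 CPM. Markers of cardiomyocytes summed to 57206 and 49848 CPM, and 10 of 10 were read. Erythroid markers summed to 13799 CPM in replicate 1 and 3663 CPM in replicate 2, with 5 of 7 read, and the other marker lists reached at most 1241 CPM. The part of this difference in the results was not tested.

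Known transcripts of one exon were a small fraction of the heart's annotated reads, of similar size in both libraries. They held 9973 reads in replicate 1, 2.32% of annotated nuclear reads (exact 95% interval 2.27 to 2.36), and 14173 reads in replicate 2, 2.25% (2.21 to 2.29). The mean was 2.28% ± 0.0480 (SD, n = 2). Reads were spread unevenly: 477 transcripts had a single read over both libraries, 302 had 10 or more and 51 had 100 or more. The 20 most read transcripts held 37.7% of the reads. The median was 2 summed reads per transcript, against 6 for the 16575 known spliced transcripts read.

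Pseudogenes and protein-coding genes made up nearly all of these reads. Pseudogenes were 402 of the 1235 transcripts (32.6%) and held 57.2% of the reads in replicate 1 and 56.3% in replicate 2. Protein-coding genes were 522 transcripts (42.3%) with 35.7% and 37.5% of the reads. Long non-coding genes were 147 transcripts with 4.25% and 4.06%, and small RNA genes were 88 transcripts with 2.06% and 1.49%. Within the coding class, 260 coding transcripts of genes with no annotated spliced form held 26.02% and 27.82% of all the reads. Coding transcripts of genes that also have spliced forms (81) held 5.97% and 5.64%, and retained-intron transcripts of coding genes (173) held 3.72% and 3.90%.

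**Figure D1:**
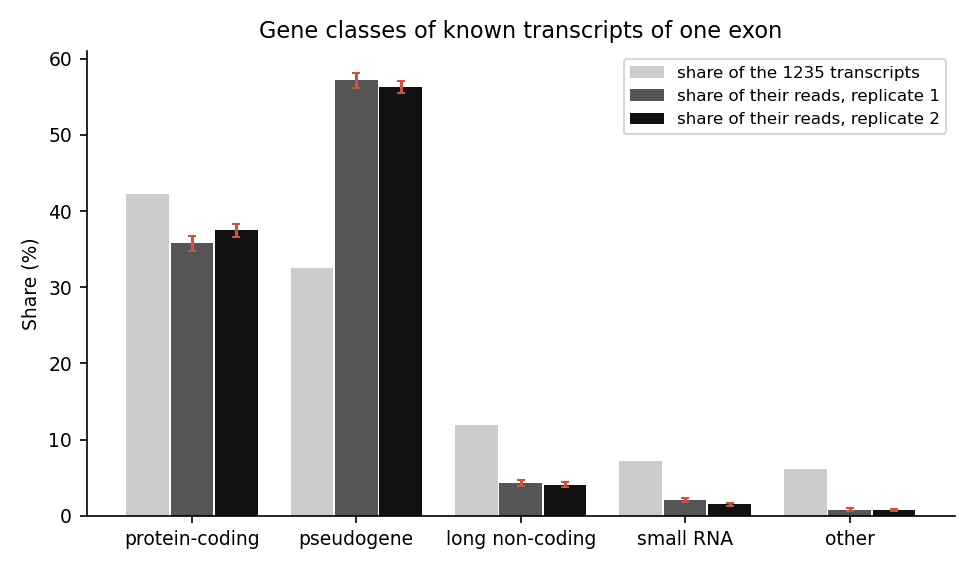
Share of the 1235 transcripts (light bars) and share of their reads in each library (dark bars) by annotated gene class, in percent; red bars are exact 95% intervals of the read shares. Pseudogenes were 32.6% of the transcripts and held 57.2% and 56.3% of the reads.

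Few of the annotated one-exon transcripts were seen at all. A read was found for 1235 of 26771 (4.61%), against 16575 of 115054 annotated spliced transcripts (14.4%). The share was 522 of 5092 (10.3%) for protein-coding genes, 147 of 1237 (11.9%) for long non-coding genes, 402 of 10967 (3.67%) for pseudogenes and 88 of 6091 (1.44%) for small RNA genes. Among coding genes it was 24 of 305 (7.87%) under 500 bases, 52 of 1537 (3.38%) from 500 to under 1000 bases, and 35 of 139 (25.2%) at 5000 bases or more. Among pseudogenes it was 198 of 5149 (3.85%) under 500 bases, 132 of 4116 (3.21%) from 500 to under 1000 bases, and 1 of 12 (8.33%) at 5000 bases or more.

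The most read transcript was Gm15459, a processed pseudogene of Hspa8, the constitutive Hsc70 chaperone (chr5:5781615-5783555, minus strand). It had 748 reads (1739 CPM) in replicate 1 and 1153 reads (1830 CPM) in replicate 2, a mean of 1784 ± 65.0 CPM (SD, n = 2). Next came Gm12338, the Cox7c copy printed above, with 346 and 529 reads (804 and 840 CPM). Gm14539 (chrX:20581141-20581314), a copy of Usmg5, which encodes a small protein of the ATP synthase, had 297 and 441 reads (690 and 700 CPM). After it came Gm12671 (chr4:91851668-91852669), which is identical to the 1002 bases of the Gapdh coding sequence, with 268 and 368 reads. The first member that is no pseudogene was Jund, next in order, with 241 and 299 reads (560 and 475 CPM). Of the 20 highest, 16 were near-identical copies of another gene, and the exceptions were Jund, Cebpb, Fem1a and the small RNA Gm28006.

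**Figure D2:**
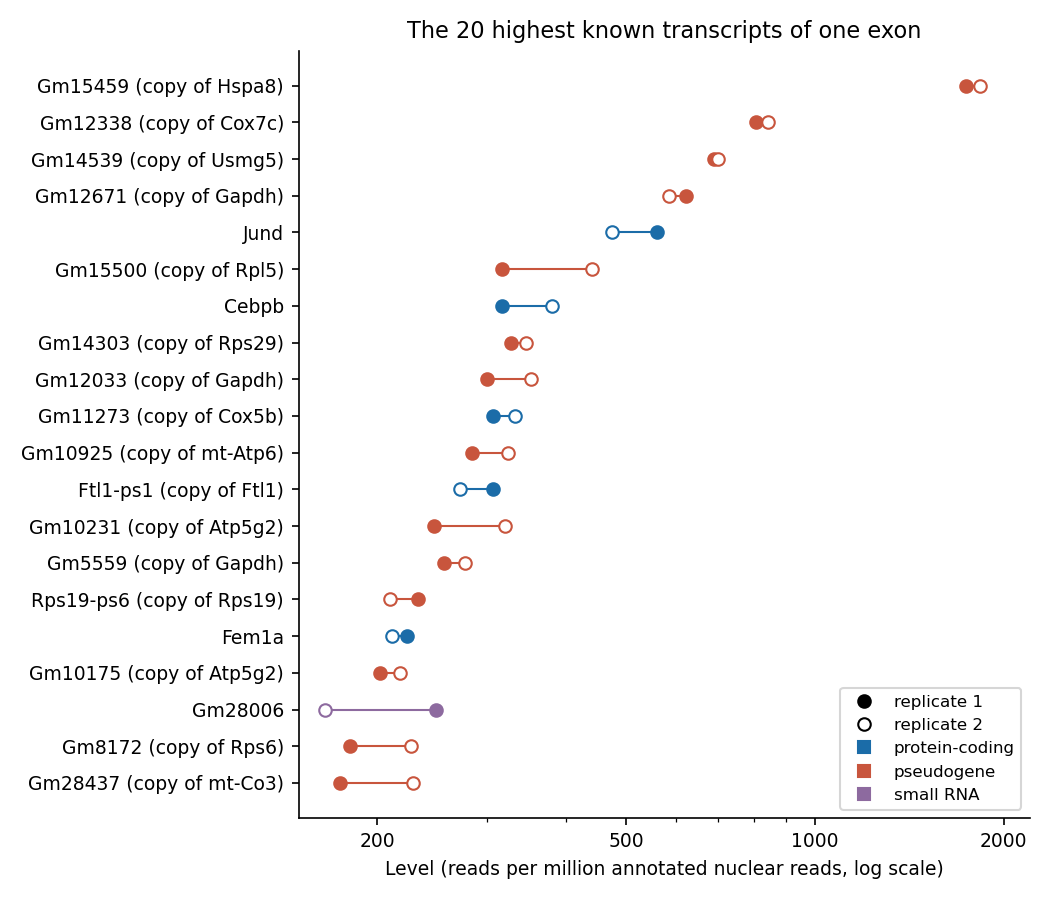
Level of the 20 highest transcripts in replicate 1 (filled) and replicate 2 (open), in CPM on a log scale, coloured by gene class; the source gene is given for copies. Gm15459 stood at 1739 and 1830 CPM, above all others in both libraries.

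A member was counted as a copy where its best match to a spliced or mitochondrial coding transcript of another gene had at least 95% identity over at least 90% of its length. By this measure 392 members were copies of 269 source genes, with a median identity of 99.5%, and 72 were identical over their whole length. Copies held 62.1% of the reads on one-exon transcripts in both libraries (6190 and 8798 reads, exact 95% intervals 61.1 to 63.0 and 61.3 to 62.9). Identical copies alone held 23.2% and 25.1%. Copies annotated as pseudogenes made up 347 of the 392, and 39 were annotated as protein-coding, such as Gm11273 (132 and 209 reads), a copy of Cox5b, and Ftl1-ps1 (132 and 171 reads), a copy of the ferritin light chain gene Ftl1. Of the 402 pseudogenes read, the 55 that were no copy held 0.572% and 0.445% of the reads.

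The clearest family was Gapdh. The Gapdh gene itself had 6 reads in each library over all its models, whereas its one-exon copies had 640 and 1008 reads, which is 99.1% (98.0 to 99.7) and 99.4% (98.7 to 99.8) of the family's reads. Source and copies together came to 1501 and 1610 CPM. The annotation holds 70 such Gapdh copies, and 16 of them were read. Gm12671 was the highest, followed by Gm12033 (129 and 222 reads), Gm5559 (110 and 174), Gm7336 (70 and 131) and Gm13394 (50 and 74). These 5 held 98.0% and 96.1% of the copy reads. The median identity to the source was 99.6% for the copies read and 96.5% for those not read, though 1 unread copy reached 99.9%.

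Other families divided their reads in different proportions, and the proportions of the families named next were close in both libraries. Hspa8 had 740 and 1083 reads, and its copies Gm15459 and Gm8355 together had 749 and 1155, or 50.3% and 51.6% of the family. Gm15459 differs from the Hspa8 coding sequence at 5 positions. Cox7c had 730 and 1103 reads beside the 346 and 529 of Gm12338, so the identical copy held 32.2% and 32.4%. Usmg5 had 714 and 1023 reads, and Gm14539 held 29.4% and 30.1% of that family.

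Copies of Atp5g2, which encodes subunit c of the ATP synthase, took more than their source: Gm10231 (106 and 202 reads) and Gm10175 (87 and 137) stood beside 107 and 202 reads of Atp5g2 itself, 64.3% and 62.7% in all. Hadhb, which encodes a subunit of the mitochondrial trifunctional protein of fatty acid oxidation, was at the other end. It had 2017 and 3362 reads, against 72 and 100 on its copy Gm13910, which is 3.45% and 2.89%. Cox5b kept most of its reads as well, with 612 and 898 against the 132 and 209 of Gm11273.

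Ribosomal protein genes supplied 48 of the 117 families with at least 10 copy reads. Copies held nearly all reads of Rpl21 (source 5 and 5 reads, copies 97 and 174) and Rpl10 (source 3 and 4 reads, Rpl10-ps3 34 and 67). For Rpl35a the source had 10 and 16 reads and its copies 87 and 127. Rpl5 had 178 and 341 reads beside 136 and 278 on Gm15500, and Rps29 had 181 and 230 beside 141 and 218 on Gm14303. Rps2 (51 and 80 reads), Rps19 (72 and 111) and Rps6 (80 and 134) each stood below their copies, which had 99 and 144, 101 and 134, and 88 and 152 reads. The most read of these were Rps2-ps13 (87 and 125 reads), Rps19-ps6 (100 and 132) and Gm8172 (78 and 143), with 7, 5 and 6 substitutions against their source.

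Over the 117 families the copies' share ranged from 1.43% to 99.2%, with a median of 22.6%. A family entered only if its copies had at least 10 reads, which most of the 269 source genes did not reach. These figures therefore describe the families chosen by their copy reads and not all genes with copies. It was over 50% in both libraries for 18 families, under 50% in both for 90, and on different sides for 9. The median share was 27.3% for ribosomal families and 21.6% for the others. The share differed between the libraries by a median of 3.57 percentage points. Among the 39 identical copies with at least 10 reads, the copy's reads were between 4.20% and 98.1% of those on the copy and its source, with a median of 32.3%, and 13 of the 39 lay between 40% and 60%. A complete match over the copy's length therefore went with no fixed share. Source reads that reach beyond the copied stretch do not match the copy completely, and other copies of the same source were not counted here. How reads that match both places in full were divided was not tested.

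**Figure D3:**
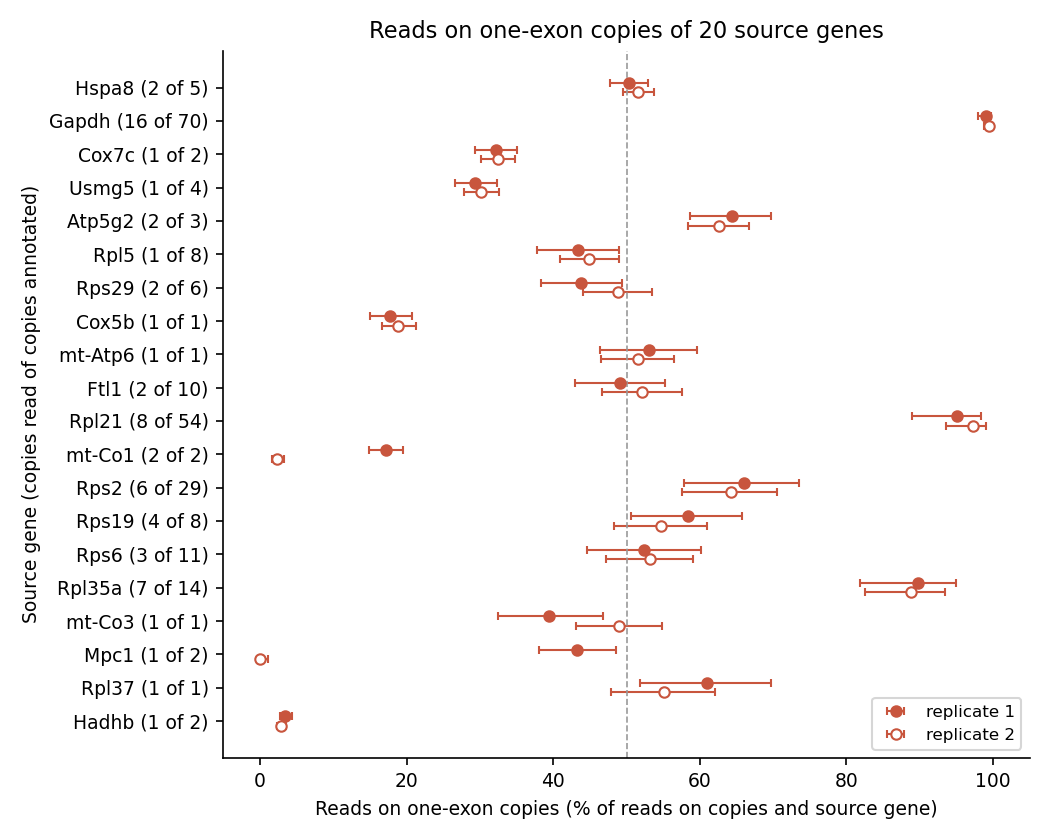
Reads on one-exon copies as a percentage of the reads on copies and source gene together, for the 20 families with the most copy reads, in replicate 1 (filled) and replicate 2 (open) with exact 95% intervals; the dashed line marks 50%. Gapdh stood at 99.1% and 99.4% and Hadhb at 3.45% and 2.89%, and the largest differences between the libraries were those of mt-Co1 and Mpc1.

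Copies of mitochondrial genes formed a separate group of 8 members with 4.44% and 3.46% of the reads. These sit in the nuclear genome on chromosomes 1 and 2, and all 8 are annotated as unprocessed pseudogenes. Gm10925 (chr1:24613974-24614651) had 122 and 204 reads, beside 108 and 192 on mt-Atp6, which encodes an ATP synthase subunit and is identical to it. Gm28437 had 75 and 144 reads beside 115 and 150 on mt-Co3, and Gm28661 had 59 and 98 beside 70 and 120 on mt-Co2; mt-Co3 and mt-Co2 encode subunits of cytochrome c oxidase. Gm29216, a copy of mt-Co1, had 162 and 7 of the group's 443 and 490 reads. The group's share in replicate 1 thus depends in large part on this copy. Because the mitochondrial genes were left out of the denominator, reads of the 8 copies were counted as nuclear.

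Whether a pseudogene was read went with how closely it matched its source. The best match of each annotated one-exon pseudogene was used where it covered at least 90% of the length. Of those under 90% identity, 5 of 1851 were read (0.270%), and between 90% and 95% it was 16 of 1851 (0.864%). The share was 25 of 982 (2.55%) between 95% and 97%, 84 of 1074 (7.82%) between 97% and 99%, 165 of 665 (24.8%) from 99% to under 100%, and 73 of 186 (39.2%) at 100%. The median identity was 99.4% for the 368 read and 93.5% for the 6241 not read.

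The level of the source gene moved with this share too. For sources with at least 100 summed reads, 91 of 160 pseudogenes (56.9%) from 99% to under 100% identity were read, and 43 of 59 (72.9%) at 100%. For sources with under 20 summed reads the same steps gave 32 of 370 (8.65%) and 6 of 79 (7.59%). That lowest group holds the Gapdh copies, since Gapdh itself had 12 summed reads, and its most read copy had 636. Copies of the same gene share sequence and are not independent, so these shares are descriptions.

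**Figure D4:**
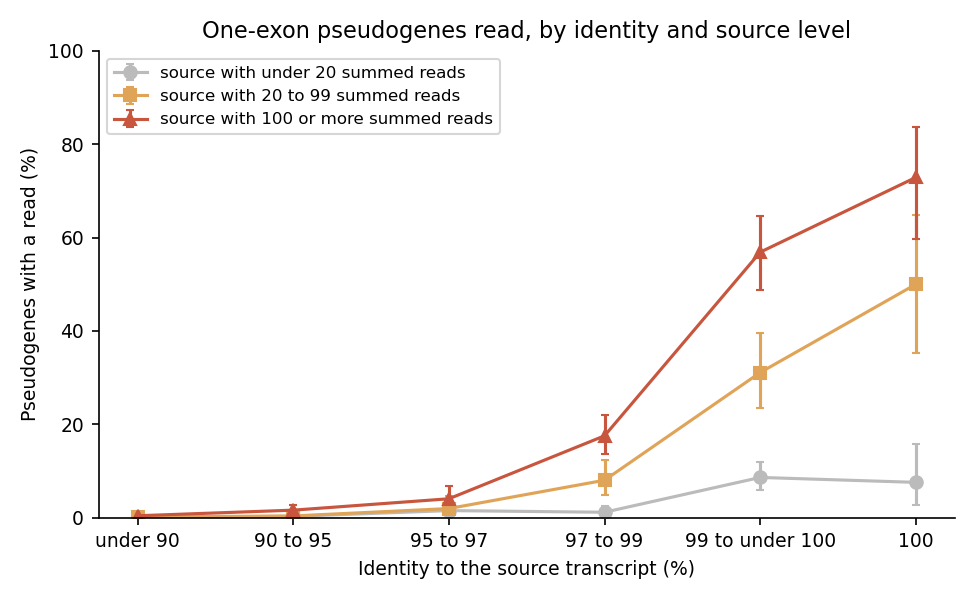
Percentage of annotated one-exon pseudogenes with at least 1 read, by identity to the best-matching source transcript, in 3 groups by the summed reads of the source gene; bars are exact 95% intervals. The share was 0.445% under 90% identity and 72.9% at 100% for sources with 100 or more reads.

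The annotated ends of the transcripts read differed between pseudogenes and coding genes. Of the 402 pseudogenes read, 195 (48.5%) began with ATG and ended with a stop codon, as a bare reading frame does, against 1786 of 10555 pseudogenes not read (16.9%). The same held for 9 of 302 protein-coding one-exon transcripts read that are no copies (2.98%), but for 1085 of 2458 protein-coding one-exon transcripts not read (44.1%). Of the 392 copies, 151 (38.5%) spanned exactly the coding sequence of their source and 315 (80.4%) lay within it. The sequence AATAAA or ATTAAA, searched on the RNA strand alone, was found in the last 40 bases of 210 of 302 coding one-exon transcripts that are no copies (69.5%). The share was 10357 of 14249 (72.7%) for spliced coding transcripts, 91 of 147 (61.9%) for long non-coding members and 16 of 402 (3.98%) for pseudogenes. Among transcripts not read it was 339 of 10555 for pseudogenes (3.21%) and 515 of 2458 for protein-coding ones (20.95%), so coding transcripts read and not read differed in their annotated ends as well. A transcript without these letters in the window may still end in another way, and no read ends were measured here.

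Members of protein-coding genes that are no copies gave 3058 and 4488 reads, 30.7% and 31.7% of the reads on one-exon transcripts. Of these, 2244 and 3327 reads (22.5% and 23.5%) were on genes without an annotated spliced transcript, and 814 and 1161 on genes that also have one. Jund, a member of the AP-1 transcription factor family (chr8:70698949-70700616, plus strand), led the genes without spliced forms at 517 ± 60.4 CPM (SD, n = 2). Cebpb, a basic leucine zipper factor of stress and inflammatory responses (chr2:167688915-167690418), had 136 and 240 reads, or 349 ± 45.9 CPM. Fem1a, a substrate adaptor of a ubiquitin ligase, had 96 and 133 reads on an annotated transcript of 6801 bases. Pcbp1, which binds poly(C) stretches of RNA, had 80 and 135 reads. The uncharacterised gene 0610012G03Rik had 69 and 125 reads. Cenpb, the protein that binds a centromeric repeat, had 71 and 102, and Tspyl1, of the nucleosome assembly protein family, had 73 and 94. These levels spanned a range from 517 CPM for Jund to 159 CPM for Tspyl1, and the SD of neighbours in this order overlapped from Fem1a down.

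Several genes of known cardiac roles had a one-exon transcript that was read. Kcnj11, Adrb1 and Gja1 also have annotated spliced transcripts, while Lrrc10 and Kcna5 do not. Kcnj11, the pore subunit of the ATP-sensitive potassium channel, had 53 and 77 reads on its one-exon transcript (123 ± 0.666 CPM), which was 89.8% and 92.8% of all reads of the gene. Lrrc10, a leucine-rich repeat protein of cardiomyocytes, had 12 and 30 reads. Adrb1, the beta-1 adrenergic receptor, had 9 and 22 reads. Kcna5, a voltage-gated potassium channel, had 10 and 7 reads. The one-exon transcript of Gja1, the gene of connexin 43, is annotated as a retained intron and had 0 and 3 reads. Kcnj11, Lrrc10, Adrb1 and Kcna5 had at least 10 summed reads and were tested between the libraries. None was called, where 0.232% of all transcripts tested were, so no call is the usual outcome for so few genes.

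Gene families with members that lack introns were covered by 12 lists, with 82 members read. A transcript of one exon is annotated for only part of the listed genes. Of the lists that follow, this holds for 14 immediate-early and stress, 19 histone, 19 receptor and 25 transcription factor genes. Of 16 immediate-early and stress genes, 13 had a one-exon transcript read, together 489 and 703 reads (1126 ± 14.5 CPM, SD, n = 2), led by Jund, Cebpb and Junb (37 and 36 reads). Of 20 histone genes in the annotation 10 were read, together 144 and 213 reads (336 ± 2.45 CPM), led by Hist1h4h (32 and 50), the linker histone H1f0 (27 and 39) and Hist2h2aa1 (23 and 31). Of 38 G protein-coupled receptor genes 12 were read, together 49 and 87 reads, led by Adrb1, P2ry1 (11 and 16) and Gpr27 (10 and 8). Of 36 transcription factor genes 15 were read, together 79 and 120 reads, led by Irf2bp1 (20 and 46), Sox4 (13 and 19) and Irf2bpl (14 and 12).

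Endothelial genes gave 4 members of 16, with 58 and 96 reads, led by Cldn5, a tight junction claudin (26 and 41 reads), and Thbd, thrombomodulin (22 and 31). Ion channel and connexin genes gave 4 of 26, with 64 and 87 reads, nearly all of them on Kcnj11. Nuclear non-coding RNAs gave 8 of 24, with 103 and 146 reads. The remaining lists held few reads. Leucine-rich repeat genes had 13 and 31 reads on Lrrc10 and Lrrc10b. Phosphatase and signalling regulators had 13 and 10 reads led by Ppp1r3d (10 and 7), Frat2 (2 and 2) and Frat1 (1 and 0). Mitochondrial and metabolic genes had 9 and 7 reads led by Mars2 (4 and 5), Pigm (4 and 2) and Chchd4 (1 and 0). Clustered protocadherins and zinc finger genes had 9 and 9 reads over 5 members, led by Pcdhb20 (1 and 5), Pcdhb9 (3 and 1) and Pcdhb17 (1 and 3), and actin-like, kelch and muscle genes had 1 and 4 reads on Hspb3 and Ankrd63. Many genes of these lists have no annotated transcript of one exon, so a list's count is not its genes' full level. Such a transcript is annotated for 8 endothelial, 6 channel and connexin, 15 nuclear non-coding and 2 leucine-rich repeat genes. It is annotated for 5 phosphatase and signalling, 7 mitochondrial and metabolic, 14 protocadherin and zinc finger, and 5 actin-like, kelch and muscle genes.

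Genes that have both spliced and one-exon transcripts held 319 members and 12.2% and 12.1% of the reads. For Junb all reads of the gene (37 and 36) lay on the one-exon form, and the same held for the histone gene H2afj (18 and 32). Smim10l1 had 48 and 73 reads on its one-exon form, 92.3% and 97.3% of the gene. P2ry1, a purinergic receptor, was divided, with 11 of 22 and 16 of 31 reads on the one-exon form.

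Most retained-intron transcripts had few reads, with some exceptions. Trdn encodes triadin, a protein of the calcium release complex in the sarcoplasmic reticulum. Its transcript Trdn-204 (chr10:33198705-33200369, 1665 bases) had 71 and 75 reads, 29.96% and 20.83% of the 237 and 360 reads of the gene. Ss18l2-207 had 48 and 78 reads, 48.0% and 42.2% of its gene. Klhl33-203 had 26 and 34 reads, 96.3% and 94.4% of its gene, while Egfl7-213 had 10 and 23 reads, 20.0% and 32.4% of the endothelial gene Egfl7. Whether such reads came from complete RNAs or from unspliced precursors was not tested.

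Long non-coding members were led by the 339-base transcript of the lincRNA gene 2900097C17Rik on chromosome 2, with 44 and 52 reads. Its overlapping transcript of 4915 bases had 17 and 52 reads. The mean level of that transcript, 61.0 CPM, was below Neat1 (80.8 CPM) and the lincRNA Gm10076 (72.2 CPM), which had 28 and 50 reads. In replicate 2 its reads were not fewer than theirs. Neat1, the scaffold RNA of nuclear paraspeckles, had 34 and 52 reads on an annotated transcript of 20771 bases (chr19:5824708-5845478, minus strand). Within the Neat1 locus and on the same strand lies Gm28006, an annotated RNA of 122 bases of the class misc_RNA (chr19:5844916-5845037), with 107 and 104 reads. Both share genome positions, so their reads cannot be separated by place alone. Malat1, another abundant nuclear RNA, had 13 and 11 reads. The antisense RNA of the Kcnq1 domain, Kcnq1ot1, annotated at 93092 bases, had 4 and 4 reads. An annotated length is a property of the model, and the lengths of single reads were not analysed here.

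Further long non-coding members were Gm10076, a copy of Rpl41 (28 and 50 reads on 1 form, 7 and 11 on the other), and AY036118 and Gm42418, which lie opposite each other on chromosome 17 with 16 and 34 and 17 and 27 reads. Gm43672 had 18 and 28 reads, Gm47644 had 18 and 22, and the antisense RNA Zbtb11os1 had 13 and 8. Small RNA members other than Gm28006 had few reads: Mir546 had 7 and 9, Snord13 had 5 and 9, and Mir568 had 6 and 5. Of the 41 miRNA precursors read, 22 (53.7%) overlapped a model of another gene on the same strand, as Mir546 does Ctdsp2 (25 and 30 reads). Among unclassified TEC transcripts, Gm43361 had 12 and 14 reads and Gm37829 had 6 and 15.

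Reads of genes without annotated spliced transcripts were mostly of the class Known. Of their reads, 98.9% in each library lay on the known transcript (98.9% ± 0.0183, SD, n = 2), 0.901% ± 0.0282 on models of the class Genomic and 0.0475% ± 0.0447 on incomplete splice matches. In genes with spliced transcripts the known share was 75.1% ± 0.0727 and incomplete splice matches took 11.1% ± 0.197. The classes are defined differently for a model of one exon, so the shares are given side by side without a test. Of 253 such genes with at least 10 summed reads, 225 had every read on a known transcript. Spliced models appeared in 91 of the genes without annotated introns, with 93 and 136 reads, 1.05% and 1.08% of these genes' reads. They hold nearly all the reads counted above outside the known transcripts. The 98.9% is therefore close to the share of reads on models of one exon. It does not measure how well the reads match the annotated ends. Snord104 had 16 and 17 reads on spliced models against 1 and 5 on the known transcript, Gas1 had 5 and 3 against 38 and 54, and Dnajc30 had 0 and 5 against 26 and 42.

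Each transcript's reads in the libraries were compared by a two-sided exact binomial test, with Benjamini-Hochberg adjustment over all 6908 known nuclear transcripts with at least 10 summed reads. The test compares these libraries only. A call needed an adjusted p under 0.05 and at least a 2-fold difference, and 0.232% of all transcripts tested were called. Among the 302 one-exon transcripts tested 5 were called (1.66%), and among 6606 spliced transcripts 11 were called (0.167%). All 5 were higher in replicate 1, where 0.188% of all transcripts tested were called in that direction. The median absolute log2 ratio was 0.34 for one-exon and 0.33 for spliced transcripts. At an unadjusted p under 0.05 there were 26 of 302 (8.61%), against 6.82% of all transcripts tested.

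All calls but 1 were near-identical pseudogenes. Mpc1-ps (chr12:110858565-110858894), a copy of the mitochondrial pyruvate carrier gene Mpc1, had 155 and 0 reads (adjusted p = 2.73e-58, exact binomial test). Its level was 75.6-fold higher in replicate 1 when 0 is set to the floor of 3 reads. The exact 95% interval of the ratio between the libraries began at 60.8-fold. Gm29216 (chr1:24615706-24616197), a copy of mt-Co1, had 162 and 7 reads, 33.9-fold (adjusted p = 7.64e-51). Gm10774 (chr2:126709354-126709557), a copy of the RNA polymerase subunit gene Polr2l, had 101 and 4 reads, 37.0-fold (adjusted p = 1.68e-31). Oaz1-ps, a copy of the antizyme gene Oaz1, had 49 and 8 reads, 8.97-fold (adjusted p = 1.14e-09). The remaining call was Mir7219, with 10 and 0 reads (adjusted p = 0.0242). Its level was 4.88-fold higher with 0 set to the same floor, and the exact 95% interval of its ratio began at 3.28-fold.

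At each of these places other models on the same strand held reads as well. Models without an annotated gene over Mpc1-ps had 72 and 386 reads, and over Gm29216 they had 0 and 212. Models of Usp50 over Gm10774 had 0 and 198 reads, models of AC154200.1 over Oaz1-ps had 0 and 65, and models of Fam210a over Mir7219 had 39 and 56. When all same-strand reads were summed, the counts were 227 and 386 for Mpc1-ps, 162 and 219 for Gm29216, 101 and 202 for Gm10774 and 49 and 73 for Oaz1-ps. The log2 ratios were then -0.21, 0.12, -0.45 and -0.02, and 0.36 for Mir7219, and none of the 5 passed. The source genes had reads in both libraries at like levels: Mpc1 had 203 and 334 reads (log2 ratio -0.17), mt-Co1 875 and 1455 (-0.18), Polr2l 155 and 206 (0.14), and Oaz1 749 and 1171 (-0.09). Whether the difference lies in the RNA or in the assignment of reads to models was not tested.

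Summing in this way brought 487 members, of 7093 transcripts in all, to the minimum of 10 reads. It called 5 other members instead (1.03%), against 0.226% of all transcripts tested. Gm28661 went from 59 and 98 to 60 and 310 reads (log2 ratio -1.81, adjusted p = 7.36e-21, exact binomial test). Its 212 added reads in replicate 2 are those of the model that was also added to Gm29216, so they enter both sums. Gm42418 went from 17 and 27 to 17 and 82 (log2 ratio -1.69). Gm6969 went from 26 and 60 to 26 and 83 (log2 ratio -1.11). Gm20712 went from 4 and 1 to 47 and 1 (log2 ratio 5.53), and Got2-ps1 from 3 and 2 to 32 and 2 (log2 ratio 4.25), and both were below the minimum before.

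**Figure D5:**
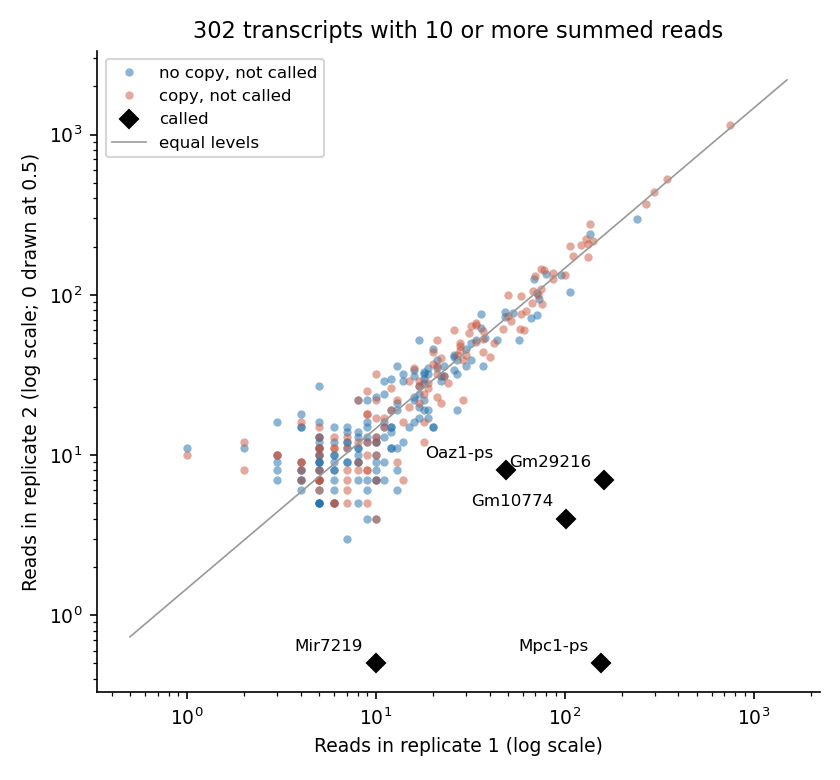
Reads in replicate 1 and replicate 2 (log axes) of the 302 transcripts with at least 10 summed reads; copies are red, other members blue, called members black diamonds, and the line marks equal levels per annotated nuclear read. Most points follow the line, and the 5 called members lie below it.

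None of the 40 list members tested passed the adjusted threshold, where 0.622% of all transcripts tested did. By the exact binomial test, 2 of the 40 had an unadjusted p under 0.05, against 6.82% of all transcripts tested. The 2 members were Cebpd, a relative of Cebpb (5 and 27 reads, log2 ratio -1.77, adjusted p = 0.268), and Foxc1, a forkhead factor (3 and 16 reads, log2 ratio -1.69, adjusted p = 0.665).

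Shared positions were common in the whole class. A model of another gene on the same strand with reads overlapped 135 of the 1235 members (10.9%), and one on the opposite strand overlapped 259 (20.97%). Same-strand overlap was found for 31 of 88 small RNA members (35.2%) and opposite-strand overlap for 68 of 147 long non-coding members (46.3%). The files and labels used do not describe the strand assignment, which leaves levels of overlapping members uncertain. No such model overlapped 866 members (70.1%), among them 339 of the 392 copies.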

How the data were processed

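Hearts were sequenced as 2 long-read cDNA libraries of 1 group. The deposited values are whole counts for each transcript model, in 1 file for each library and not normalized; exon number and length in the deposited tables are other properties of the model. Alignment to mm10 and comparison with GENCODE M21 are stated in the text files deposited by the authors, and the deposited annotation names TALON as the source of added models; the aligner, program versions and strand assignment are not given in the sources used here.

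From these counts, CPM were computed over annotated nuclear reads. Shares have exact Clopper-Pearson 95% intervals, which like the floor of 3 reads cover counting error only. Copies were found with megablast (BLAST+ 2.17.0, e-value 1e-10) of annotated one-exon transcripts against spliced or mitochondrial coding transcripts of non-overlapping genes, and the identity and coverage limits were chosen after seeing the data. The binomial test used SciPy 1.17.1 and was tested on simulated data; log2 ratios are replicate 1 over replicate 2 with 0.5 reads added. Alternatives used edgeR 4.0.16 for TMM factors and DESeq2 1.42.0 for size factors. The members, gene lists and tests were chosen with earlier results of these data known. Named were the 20 highest members, the 10 highest coding, pseudogene and long non-coding members, the 5 highest others, the 3 highest of each list, all called members with overlapping genes, and members of 10 or more reads in 1 library alone. Other members were named as examples after their values were seen. No column of per-sample values was left unused. Bases after the annotated ends were not analysed here, as no genome sequence was used, and features within the transcript took their place.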

Additional observations from a re-analysis of the deposited data

How the results depend on the processing

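The share of annotated nuclear reads on known one-exon transcripts (2.28%) was 3.02% with known nuclear reads as the denominator, 2.20% with all mouse reads and 2.14% without members that overlap exons of another gene on the same strand; leaving out a replicate gave 2.25% to 2.32%. By class, the share over known nuclear reads was 1.10% for protein-coding genes, 1.71% for pseudogenes, 0.126% for long non-coding genes, 0.0536% for small RNA genes and 0.0223% for the others, and over annotated nuclear reads without a replicate it was 0.829% to 0.843%, 1.27% to 1.33%, 0.0914% to 0.0985%, 0.0335% to 0.0476% and 0.0159% to 0.0179%. The median absolute log2 ratio was 0.21 at 50 or more reads and 0.42 at 5 or more, and 0.20 and 0.39 for spliced transcripts. The known share in genes without spliced transcripts had a median of 100% over genes and was 98.91% to 98.94% without a replicate. The share of annotated one-exon transcripts read (4.61%) was 2.36% in both libraries and 3.27% to 3.71% without a replicate.

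The number of calls was 5, and the same 5 were called, at 5 or more reads and with TMM, DESeq2 size factors, known nuclear reads or all models of the gene summed. It was 4, without Mir7219, at 20 or more reads or with no minimum, and 7 with spike-in scaling, which lowered log2 ratios by 0.27 and added Cebpd and a 2900097C17Rik transcript. With overlapping reads added it was also 5, with 0 shared with the 5 above; the log2 ratios of Mpc1-ps, Gm10774 and Oaz1-ps reversed to -0.21, -0.45 and -0.020, and the cause was not tested. Adjusted p of Mir7219 ranged from 0.0145 to 0.0624 under the scalings and minimums run. The spike-in shift applied to every transcript tested, and the minimums changed the number tested, from 4720 to 17810. The share of all transcripts called was not worked out under these scalings and minimums. Their counts of called members therefore cannot be set against that share.

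The copies' share (62.1%) was 62.4% at 90% identity over 80% of the length, 62.3% at 95% over 50%, 58.2% at 99% over 90%, and 61.1% without called members, alternatives added after seeing the data; without a replicate it was 62.07% to 62.08%. The Gapdh copies' share was 99.1% to 99.4% without a replicate. Adenines after the annotated 3 prime end and their alternatives were not run. No paired analysis was possible because there is 1 group, and without either library no comparison is left. Counts under 10 reads, 933 of 1235 members, limit what can be compared.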
